A study of Drosophila melanogaster with 16 samples.

Results

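Flies of the deletion lines *208-ΔG* and *208-ΔA* were compared by RNA sequencing of the whole body, with sex as a factor. The comparison used 8 of the 16 libraries of the series, 4 from each line, and covered the 16212 genes whose median count over the 16 libraries was 2 or more. Each line carries its own small deletion of the promoter region and exon 1 of *Uhg4*, made with CRISPR-Cas9 in the inbred wild-type line DGRP_208 and then backcrossed to it. Neither line is a control for the other, since both lack this part of *Uhg4*, and each stands for a single allele kept over a *CyO* balancer. A library was made from 30 homozygous flies aged 3 to 5 days, and each sex of each line had 2 libraries. The libraries of another deletion line, *208-ΔF*, and of DGRP_208 entered the fit to estimate the spread between replicates. Total counts per library were 13902521 to 35986967 in *208-ΔG* and 15194289 to 51954693 in *208-ΔA*. Nothing in the labels says whether replicates came from separate cultures or days, so p-values measure the spread between these libraries.

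*Uhg4* is a snoRNA host gene, a long noncoding RNA whose introns hold small nucleolar RNAs. Box H/ACA snoRNAs guide pseudouridylation of ribosomal RNA, and box C/D snoRNAs guide its 2'-O-methylation. The spliced host transcript codes for no known protein. Homozygous flies of these deletion lines are sterile, which is why a balancer is needed.

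A whole fly mixes gut, fat body, muscle, eye, brain, cuticle, blood cells and gonads, so a lower count can mean fewer cells of a type or less of an RNA per cell, and these cannot be told apart here. Unless named otherwise a level is in CPM, the count scaled to a TMM-adjusted library size, which sets the bulk of genes to no change. The TMM factors were 1.17 to 1.47 in *208-ΔG* and 0.804 to 0.845 in *208-ΔA*. The 100 most abundant genes held 13.2% to 18.5% of the counts in *208-ΔG* and 24.0% to 24.8% in *208-ΔA*.

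One male library of *208-ΔA*, replicate 2, held more RNA of yolk and vitelline membrane genes than any other male library. Its *Yp1*, a yolk protein of the female fat body and follicle cells, was at 183 CPM, against 5.63 in replicate 1 and 11.8 and 8.90 in the *208-ΔG* males. The summed level of 9 vitelline membrane genes was 312 CPM in that library and 12 in the other *208-ΔA* male library. It was 125 in each *208-ΔG* male library and 21.5 to 119 in males of *208-ΔF* and DGRP_208. Chorion genes summed to 19.6 CPM in the same *208-ΔA* library, against 92.1 and 99.9 in *208-ΔG* males. Germ line and maternal genes summed to 2303 CPM in it and 2361 in the other *208-ΔA* male library. The lists of yolk, vitelline membrane, chorion and germ line genes are therefore given with and without it.

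*Uhg4* (2R, 9095273 to 9097312 on the plus strand of the BDGP6 annotation) had few reads in either line. Its counts were 6 and 14 in *208-ΔA* females, 40 and 33 in *208-ΔA* males, 4 and 20 in *208-ΔG* females, and 13 and 9 in *208-ΔG* males, while DGRP_208 females had 276 and 121. The lines overlapped in females, and both *208-ΔG* males lay below both *208-ΔA* males. With the sexes averaged, *Uhg4* was lower in *208-ΔG* by a log2 fold change of -1.09 (SE 0.42, adjusted p = 0.0431), a call lost in 11 of the 16 fits that leave out 1 library.

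Of the snoRNAs within *Uhg4*, *snoRNA:Or-aca5* and *snoRNA:Psi28S-2949* had few reads in both lines. *snoRNA:Or-aca5* had 1, 10, 7 and 18 reads in *208-ΔA* (females, then males) and 30, 5, 5 and 2 in *208-ΔG*, against 716 to 5185 in DGRP_208. *snoRNA:Psi28S-2949* had at most 5 reads in any library of either line, and no fold change is given for these snoRNAs. Of the neighbours, *Boot* was higher in *208-ΔG* by 1.01 (SE 0.30, adjusted p = 0.0161) and *Ctu1*, an enzyme subunit of tRNA wobble-base thiolation, by 0.88 (SE 0.26, adjusted p = 0.0164). *Boot* was at 3.24 to 4.51 CPM in *208-ΔA* and 5.59 to 9.28 in *208-ΔG*, without overlap. In DGRP_208 it was at 39.5 and 61.7 CPM in females, above the females of both deletion lines, and at 3.64 and 6.05 in males. *Ctu1* was higher in both *208-ΔG* libraries of each sex. The call of *Boot* was lost in 2 of the fits that leave out 1 library, those without *208-ΔG* female replicate 1 (adjusted p = 0.0694) and male replicate 2 (0.0553). That of *Ctu1* was lost in 3, without the same libraries (0.0595 and 0.0502) or *208-ΔA* male replicate 1 (0.0515).

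Most of the genes tested differed between the lines. In edgeR's quasi-likelihood test with Benjamini-Hochberg adjustment, 9393 of 16212 genes (57.9%) were called at an adjusted p under 0.05 with the sexes averaged, 4507 (27.8%) higher and 4886 (30.1%) lower in *208-ΔG*. The smallest adjusted p was 0.0100, shared by many genes. The count was 5690 without *208-ΔA* female replicate 1, 5815 without *208-ΔG* female replicate 1, and up to 9985 without another library. On library size alone, without TMM factors, 9600 genes were called (59.2%), 8157 higher (50.3%) and 1443 lower (8.9%), and the median of all genes moved from 0.01 to 0.73. Directions below are thus relative to the bulk of genes, and values on library size alone are given for lists whose median changed sign, whose balance of higher and lower calls turned, or whose larger count fell by more than 1.5 times.

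In females alone the edgeR test called 0 genes. Its lowest adjusted p was 0.0594, and 8488 genes had p under 0.05 before adjustment. In males alone it also called 0 genes, with a lowest adjusted p of 0.0624 and 7787 genes at p under 0.05 before adjustment. By DESeq2 there were 8097 calls in females and 6707 in males, by limma-voom 0 and 6452, and by a linear model of each gene's GeTMM value 1 and 2. Fits that leave out 1 library called 0 to 7239 genes in females and 0 to 6502 in males. Both *208-ΔG* libraries lay above both *208-ΔA* libraries for 7089 genes in females (43.7%) and 5820 in males (35.9%), and below them for 6379 (39.3%) and 8017 (49.5%).

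The direction followed the level of a gene. Among 1087 genes with a mean of at least 64 RPKM (reads per kilobase of gene length, scaled to total counts) over the 16 libraries, 881 (81.0%) were lower in *208-ΔG* and 6 (0.552%) higher. Among 2654 genes of 4 to 8 RPKM, 1270 (47.9%) were higher and 372 (14%) lower. Median log2 fold changes were -1.18 and 0.78 in these ranges. The least abundant genes, under 0.5 RPKM, were mostly not called, with 27 of 574 higher and 49 lower. Gene lists below differ in level, so their shares are to be read beside those of genes of like level.

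**Figure D1:**
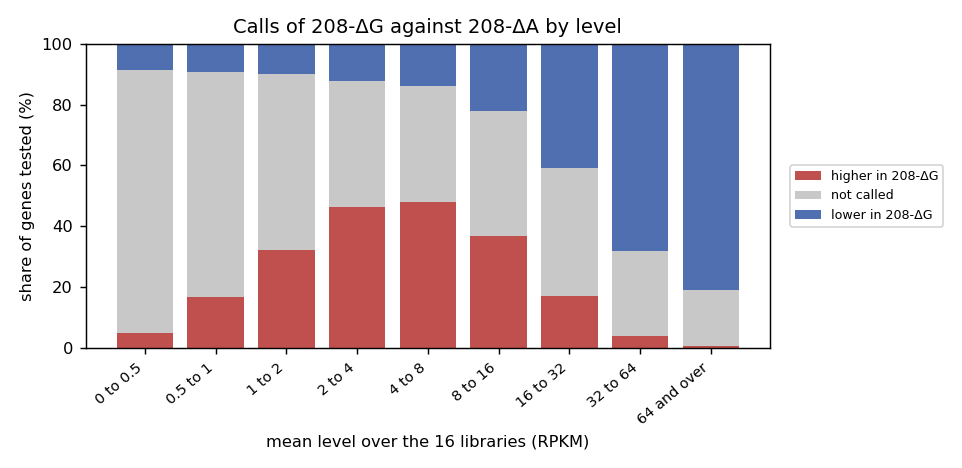
Share of genes (%, vertical axis) higher in *208-ΔG*, lower in it or not called, by mean level over the 16 libraries (RPKM, horizontal axis), from edgeR's averaged contrast. The lower share grows to 81.0% at 64 RPKM and over, while the higher share peaks at 47.9% between 4 and 8 RPKM.

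Chemoreceptor genes gave a measure of this shift. Odorant (Or), gustatory (Gr) and ionotropic (Ir) receptors are made in few sensory neurons and are scarce in a whole fly. Their median level over 186 genes, in RPKM on total counts, was 5.81 and 2.86 in *208-ΔG* females and 4.18 and 4.14 in *208-ΔG* males. In *208-ΔA* it was 0.350 and 0.930 in females and 0.465 and 0.753 in males. All 4 libraries of *208-ΔG* lay above all 4 of *208-ΔA*, a difference of 2.83 on the log2 scale or 7.09-fold. The exact permutation test within sex, two-sided, gave p = 0.0556, the smallest its 36 arrangements allow. On TMM-scaled library sizes the difference was 2.10, or 4.29-fold.

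The same measure also varied between replicates of 1 group. It was 1.96 and 0.613 RPKM in DGRP_208 females, 0.601 and 3.37 in DGRP_208 males, 0.741 and 2.27 in *208-ΔF* females, and 1.82 and 0.724 in *208-ΔF* males. Across the 16212 genes, the difference between the 2 DGRP_208 male replicates had a correlation of 0.796 with the difference between the lines. It was -0.765 for DGRP_208 females, 0.749 for *208-ΔF* females and -0.698 for *208-ΔF* males, each taken as replicate 2 minus replicate 1. In these 4 groups the correlation had the sign of the replicate difference in chemoreceptor level. The libraries are outside the 8 compared, and genes are not independent replicates, so no p is attached. When the log2 chemoreceptor level of each library was added to the 16-library fit as a covariate, edgeR called 0 genes. Before adjustment 690 had p under 0.05, and the lowest adjusted p was 0.296. DESeq2 and limma-voom were not run with this term. Because the lines do not overlap in this level, line and level cannot be told apart for most genes, and values with the covariate stand beside the main results below.

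**Figure D2:**
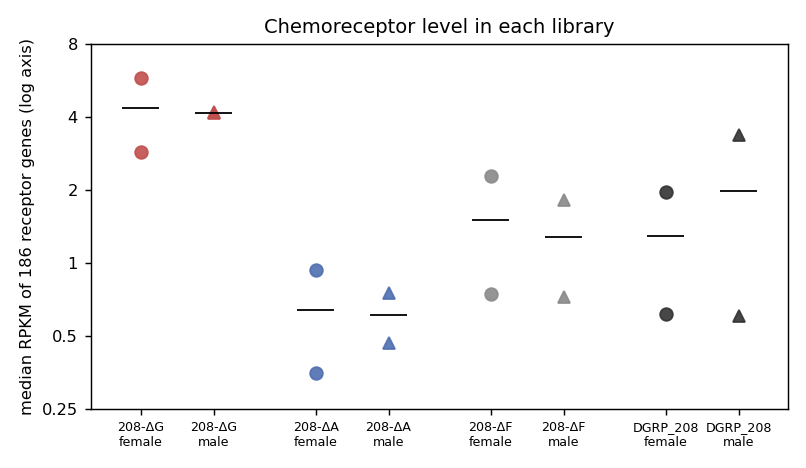
Median level of 186 chemoreceptor genes (RPKM on total counts, log axis) in each of the 16 libraries, with circles for females, triangles for males and a bar at the mean of the group. The *208-ΔG* libraries lie between 2.86 and 5.81 and the *208-ΔA* libraries between 0.350 and 0.930, and the replicates of *208-ΔF* and DGRP_208 lie apart from each other.

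Sensory receptor, cuticle and long noncoding RNA genes had most of their calls in the higher direction. Of 176 chemoreceptor genes tested, 122 were higher and 5 lower (all genes 27.8% and 30.1%), with a median log2 fold change of 1.99 against 0.01 for all genes. The counts were 34 of 56 odorant receptors, 38 of 55 gustatory receptors and 50 of 65 ionotropic receptors. With the covariate, which is built from these genes, the median was -0.22. The number higher fell to 70 without *208-ΔA* female replicate 1, to 65 without *208-ΔA* male replicate 1 and to 72 without *208-ΔG* female replicate 1.

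*Ir100a*, an ionotropic receptor, was at 1.63, 2.29, 1.81 and 1.66 CPM in *208-ΔA* and 11, 7.56, 11 and 11.6 in *208-ΔG* (females, then males). Every *208-ΔG* library was above every *208-ΔA* library, and the log2 fold change was 2.47 (SE 0.44, adjusted p = 0.0100). *Or42b*, an odorant receptor for fruit esters, rose from 1.40 to 2.26 CPM in *208-ΔA* to 4.10 to 6.80 in *208-ΔG*, a change of 1.54 (SE 0.31, adjusted p = 0.0100). *Or23a* was higher by 2.33 (SE 0.47, adjusted p = 0.0100), again without overlap of the lines.

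Cuticle protein genes, which code for the structural proteins of the exoskeleton and are used most at moults, were higher in 87 of 120 cases and lower in 9, with a median of 2.25. Their median level was 7.93 RPKM, and 47.9% of all genes of 4 to 8 RPKM were higher, against 72.5% here. The Tweedle family had 24 of 26 higher, the larval cuticle protein (Lcp) family 11 of 14, and the large Cpr family 41 of 66 higher and 7 lower. With the covariate the median of the 120 genes was 0.05. Their summed level did not follow the count of calls. It was 2504 to 3344 CPM in *208-ΔG* and 2468 to 5329 in *208-ΔA*, and the lines overlapped.

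*Cpr64Aa* was at 4.08, 11.8, 4.39 and 6.63 CPM in *208-ΔA* and at 38.4, 22.5, 26.3 and 22.5 in *208-ΔG*. The lines did not overlap, and the change was 2.03 (SE 0.32, adjusted p = 0.0100), with 1.43 under the covariate (SE 0.45, unadjusted p = 0.00942). *Cpr78Cc* changed by 2.05 (SE 0.33, adjusted p = 0.0100) and by 1.13 with the covariate. *TwdlP* changed by 2.71 (SE 0.51, adjusted p = 0.0100) and by 1.68 with the covariate, from 0.159 to 0.703 CPM in *208-ΔA* to 1.30 to 2.64 in *208-ΔG*. *Cpr30F*, by contrast, changed by 3.61 (SE 0.96, adjusted p = 0.0123) and by 0.05 with the covariate.

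The genes with the largest rises among those of at least 5 CPM, taken only from genes without overlap within either sex, included genes of the moult and of metamorphosis. *Pburs*, a subunit of bursicon, the hormone of wing expansion and cuticle tanning, was at 0.245, 2.03, 0.422 and 0.844 CPM in *208-ΔA* and 17.8, 8.11, 8.69 and 8.48 in *208-ΔG*. It was higher in every *208-ΔG* library, with a change of 3.59 (SE 0.75, adjusted p = 0.0100) and of 0.90 with the covariate. *Eig71Ei*, an ecdysone-induced gene, changed by 3.76 (SE 1.05, adjusted p = 0.0138), and its adjusted p was 0.0501 without *208-ΔA* male replicate 1. *CG34162* had the largest change of this rule, 3.85 (SE 1.06, adjusted p = 0.0132), and *CG14424* changed by 3.64 (SE 0.88, adjusted p = 0.0107). For *Eig71Ei*, *CG34162* and *CG14424* the values with the covariate were 0.12, 0.08 and 0.40.

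Among genes of at least 100 CPM, only 70 met the conditions for a higher gene, against 1558 for a lower one. These conditions were a call and no overlap of the lines within either sex. *f* (*forked*), an actin-bundling protein of bristles, was at 11.3, 45.6, 16.2 and 33.2 CPM in *208-ΔA* and 256, 139, 167 and 167 in *208-ΔG*. All *208-ΔG* libraries were higher, with a change of 2.77 (SE 0.71, adjusted p = 0.0114). *Hr4*, a nuclear receptor of the ecdysone cascade, changed by 2.15 (SE 0.44, adjusted p = 0.0100). The axonemal dynein heavy chain gene *Dhc93AB* changed by 1.95 (SE 0.46, adjusted p = 0.0104) and *CG3339* by 2.43 (SE 0.64, adjusted p = 0.0122). With the covariate, *f* was at -0.10, *Hr4* at 0.34, *Dhc93AB* at 0.01 and *CG3339* at -0.25.

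Of all genes of 2 to 4 RPKM, 46.4% were higher and 12.2% lower, with a median of 0.94. Long noncoding RNAs, whose median level was 2.35 RPKM, were higher in 734 of 1816 cases (40.4%) and lower in 174 (9.58%). Their median was 0.84, and 0.00 with the covariate. The number higher was 431 without *208-ΔA* female replicate 1, 430 without *208-ΔA* male replicate 1 and 391 without *208-ΔG* female replicate 1, and the number lower 80 to 200 over all such fits. Their summed level went the other way, with 11224 to 12555 CPM in *208-ΔG* and 13004 to 17650 in *208-ΔA*. One abundant member, *lncRNA:Hsromega*, which organizes nuclear speckles and is induced by heat, was lower by -1.48 (SE 0.35, adjusted p = 0.0105). It was at 1723 to 2052 CPM in *208-ΔA* and 400.3 to 925 in *208-ΔG*. Of 245 pseudogenes, 95 were higher (38.8%) and 30 lower (12.2%). Of 146 transfer RNA genes 38 were higher (26.0%) and 6 lower (4.11%).

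Genes of protein synthesis were mostly lower in *208-ΔG*. Cytoplasmic ribosomal protein genes had a median level of 491 RPKM. At 64 RPKM and over, 81.0% of all genes were lower, with a median of -1.18. Of 87 cytoplasmic ribosomal protein genes, 80 were lower and 0 higher by edgeR, with a median of -1.49, and the large and small subunits were alike, with 47 of 50 and 33 of 37 lower. Their summed level in *208-ΔA* was 92677 and 78060 CPM in females and 35371 and 47418 in males. In *208-ΔG* it was 19529 and 44095 in females and 15262 and 13446 in males. Within each sex the lines did not overlap, and the females of each line had the higher levels. *RpL8* was lower by -1.62 (SE 0.29, adjusted p = 0.0100) and *RpL30* by -1.65 (SE 0.30, adjusted p = 0.0100). With the covariate the median of the list was -0.55.

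Mitochondrial ribosomal protein genes had a median level of 23.0 RPKM, and 40.9% of all genes of 16 to 32 RPKM were lower. The list had 37 of 70 genes lower (52.9%) and 4 higher, with a median of -0.47 that became 0.25 on library size alone. The number lower was 18 without *208-ΔA* male replicate 2 and 24 without *208-ΔA* female replicate 1. *mRpS7* was at 31.9 to 39.4 CPM in *208-ΔA* and 9.72 to 20.6 in *208-ΔG*, a change of -1.45 (SE 0.29, adjusted p = 0.0100). Of all genes of 32 to 64 RPKM, 68.1% were lower, with a median of -0.76. At a median level of 55.7 RPKM, proteasome genes, for the complex that degrades ubiquitinated proteins, were lower in 26 of 48 cases (54.2%). A higher level was called in 3 of the 48. Their median was -0.53, and 0.19 on library size alone. Only 17 were lower without *208-ΔA* male replicate 2, and 17 without *208-ΔG* female replicate 1.

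Genes of respiration were mostly lower too. Of all genes of at least 64 RPKM, 81.0% were lower, with a median of -1.18. Of 85 nuclear genes of oxidative phosphorylation, whose median level was 160 RPKM, 68 were lower (80.0%) and 5 higher. Their median was -1.25, and -0.45 with the covariate. The number higher was 0 to 8 when single libraries were left out. By complex, 32 of 39 genes of complex I, 4 of 4 of complex II, 9 of 10 of complex III, 11 of 17 of complex IV and 12 of 15 of the ATP synthase were lower. *COX8*, a subunit of complex IV, was at 145 to 198 CPM in *208-ΔA* and 42.1 to 65.1 in *208-ΔG*, a change of -1.51 (SE 0.24, adjusted p = 0.0100). *ND-51*, a subunit of complex I, changed by -1.25 (SE 0.22, adjusted p = 0.0100). Neither gene overlapped between the lines.

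Transcripts of the mitochondrial genome itself summed to 31724, 44233, 37096 and 42809 CPM in *208-ΔA* and 6946, 20014, 12131 and 15397 in *208-ΔG*. Every *208-ΔG* library was below every *208-ΔA* library. Of 20 mitochondrial genes 11 were lower and 0 higher by edgeR, with a median of -1.53, and 9 of the 13 that code for proteins were lower. *mt:CoII* changed by -1.52 (SE 0.34, adjusted p = 0.0102).

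Muscle was the only tissue list with every gene called. Of all genes of at least 64 RPKM, 81.0% were lower, with a median of -1.18. All 26 sarcomere genes, whose median level was 288 RPKM, were lower, with a median of -1.22. Summed, they were at 62192, 66646, 72160 and 72842 CPM in *208-ΔA* and at 24736, 33337, 33809 and 26398 in *208-ΔG*. *Mlp84B*, a muscle LIM protein of the Z-disc, was at 719 to 804 CPM in *208-ΔA* and 211 to 388 in *208-ΔG*, a change of -1.38 (SE 0.28, adjusted p = 0.0100). *TpnC41C*, a troponin C, changed by -1.37 (SE 0.29, adjusted p = 0.0101). Leaving out single libraries gave 19 to 26 genes lower, and the covariate a median of -0.28.

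In the midgut, digestive enzyme genes were lower in 42 of 54 cases and higher in 6, with a median of -1.23 and with 2 to 6 higher when single libraries were left out. The list had a median level of 58.1 RPKM, and 68.1% of all genes of 32 to 64 RPKM were lower, against 77.8% here. The Jonah serine proteases had 14 of 16 lower and 2 higher, and the trypsins 9 of 11 lower and 1 higher. *Jon99Fii* was at 99.7, 79.1, 65.3 and 82.1 CPM in *208-ΔA* and 26.4, 43.4, 23.3 and 25.8 in *208-ΔG*. The lines did not overlap, and the change was -1.47 (SE 0.22, adjusted p = 0.0100), with -0.89 under the covariate. The trypsin gene *iotaTry* changed by -1.54 (SE 0.24, adjusted p = 0.0100).

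The fat body, the storage and metabolic organ, had 14 of 18 marker genes lower and 1 higher, with a median of -1.0, and on library size alone 7 lower and 1 higher. These markers had a median level of 33.9 RPKM, and 68.1% of all genes of 32 to 64 RPKM were lower, against 77.8% here. *FASN1*, the fatty acid synthase, was at 1823, 1877, 2196 and 2753 CPM in *208-ΔA* and 425, 728, 541 and 633 in *208-ΔG*. All *208-ΔG* libraries were lower, by -1.88 (SE 0.27, adjusted p = 0.0100) and by -1.14 with the covariate (SE 0.29, unadjusted p = 0.00244). *apolpp*, the precursor of the main lipid carrier of the hemolymph, was lower by -1.62 (SE 0.31, adjusted p = 0.0100). *Lsd-1*, a perilipin of the lipid droplet, fell by 1.12 on the log2 scale (SE 0.22, adjusted p = 0.0100), a call lost on library size alone. *Ilp6*, the insulin-like peptide of the fat body, was at 54.6 to 57.1 CPM in *208-ΔA* and 27.8 to 40.5 in *208-ΔG*, lower by -0.78 (SE 0.14, adjusted p = 0.0100), and its change on library size alone was -0.07 and not called.

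In the eye, 20 of 24 photoreceptor genes were lower (83.3%) and 3 higher, with a median of -0.92, against 8 lower and 4 higher on library size alone. At 32 to 64 RPKM, the range of their median level of 39.5 RPKM, 68.1% of all genes were lower, with a median of -0.76. *Arr2*, the major arrestin of phototransduction, was at 556 to 875 CPM in *208-ΔA* and 199 to 319.7 in *208-ΔG*, a change of -1.45 (SE 0.26, adjusted p = 0.0100). *Rh3*, an ultraviolet-sensitive rhodopsin, changed by -1.16 (SE 0.22, adjusted p = 0.0100) and the light-activated channel *trp* by -0.99 (SE 0.19, adjusted p = 0.0100). The median of the list with the covariate was -0.18.

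Neuron genes had a median level of 21.8 RPKM, and 40.9% of all genes of 16 to 32 RPKM were lower. The neuron list had 13 of 22 genes lower (59.1%) and 1 higher. Its median was -0.64, which became 0.09 with the covariate and 0.08 on library size alone. Without *208-ΔA* female replicate 1, 5 were lower, without *208-ΔA* male replicate 1 6, and without *208-ΔG* female replicate 1 or either *208-ΔG* male library 7. *Snap25*, a SNARE protein of the synapse, changed by -1.29 (SE 0.30, adjusted p = 0.0104). Of 30 neuropeptide genes 8 were higher (26.7%) and 10 lower (33.3%), shares near the 27.8% and 30.1% of all genes, with a median of 0.04. Without TMM factors 19 were higher and 1 lower, with a median of 0.77, and 2 to 9 were higher and 5 to 11 lower when single libraries were left out. *AstCC* was higher by 2.72 (SE 0.69, adjusted p = 0.0114) and *AstC*, an allatostatin, lower by -1.06 (SE 0.26, adjusted p = 0.0109). *AstCC* was at 0.817 to 6.19 CPM in *208-ΔA* and 14.6 to 24.8 in *208-ΔG*, and *AstC* at 23.6 to 27.6 and 10.3 to 14.6. With the covariate they were at 0.17 and -0.13, and the call of *AstC* was lost on library size alone.

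Odorant-binding proteins, which carry odorants in the sensory lymph, had shares of calls near those of all genes. Of 47 genes 14 were higher (29.8%) and 13 lower (27.7%), against 27.8% and 30.1%, with a median of -0.10. With library size alone 23 were higher and 5 lower, and the median was 0.61. The number higher was 8 without *208-ΔA* female replicate 1, without *208-ΔA* male replicate 1 and without *208-ΔG* female replicate 1. *Obp56c* was higher by 2.06 (SE 0.41, adjusted p = 0.0100) and the neighbouring family member *Obp56d* lower by -1.46 (SE 0.22, adjusted p = 0.0100). *Obp56c* was at 0.408 to 0.750 CPM in *208-ΔA* and 2.00 to 3.12 in *208-ΔG*, and *Obp56d* at 54.5 to 77.8 and 20.0 to 34.6.

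**Figure D3:**
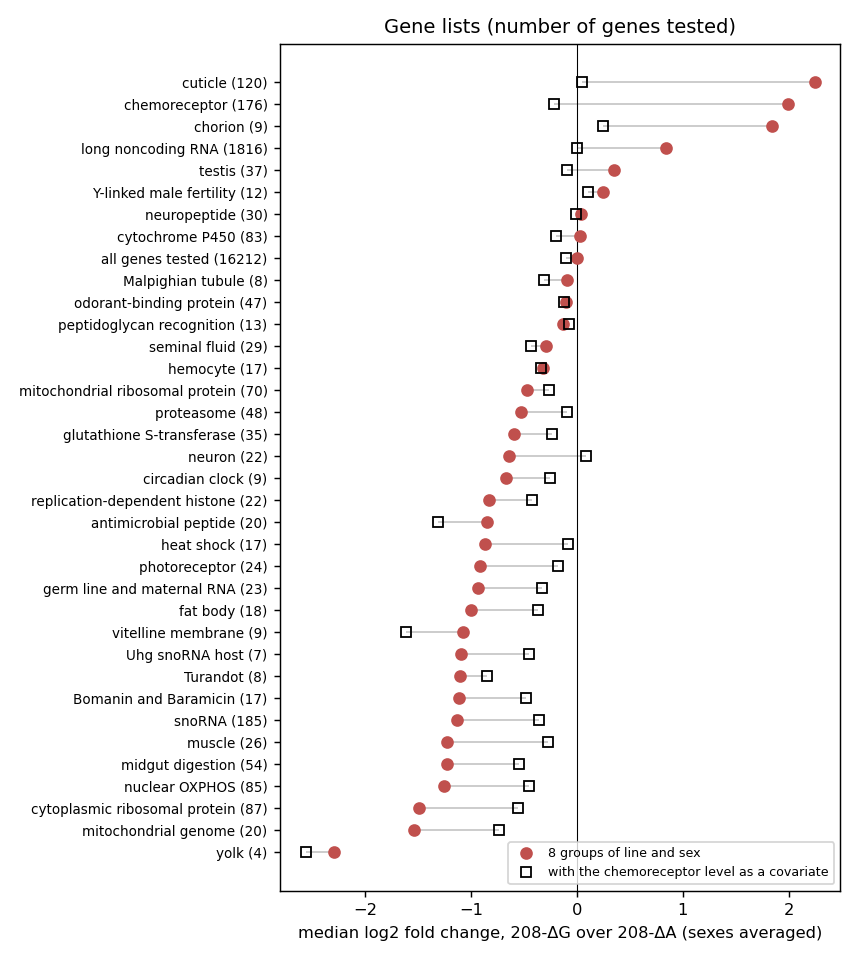
Median log2 fold change of *208-ΔG* over *208-ΔA* with the sexes averaged (horizontal axis) for each gene list, with the number of genes tested in parentheses. Filled circles show the fit of the 8 groups of line and sex and open squares the fit with the chemoreceptor level as a covariate. Cuticle genes lie at 2.25 and ribosomal protein genes at -1.49, and with the covariate at 0.05 and -0.55.

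Many immune effector genes were lower in *208-ΔG*. Bomanins and Baramicins, short peptides of the Toll response made by the fat body, had a median level of 194 RPKM. At 64 RPKM and over, 81.0% of all genes were lower, with a median of -1.18. The peptide list had 16 of 17 genes lower (94.1%) and 0 higher by edgeR, with a median of -1.11, and 5 lower on library size alone. Summed, they were at 5376, 4533, 3064 and 3703 CPM in *208-ΔA* and 1837, 2648, 1684 and 1718 in *208-ΔG*, without overlap of the lines. *BomT2* was lower by -1.56 (SE 0.21, adjusted p = 0.0100) and by -1.08 with the covariate (unadjusted p = 0.00326). *BomBc3* was lower by -1.16 (SE 0.21, adjusted p = 0.0100), a call lost on library size alone.

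Antimicrobial peptide genes had a median level of 27.0 RPKM. At 16 to 32 RPKM, 40.9% of all genes were lower and 17.0% higher, with a median of -0.24. The peptide genes were lower in 9 of 20 cases (45.0%), near that share, and higher in 1. Their median was -0.84, and -1.31 with the covariate. Scaled to library size alone, 2 were lower and 2 higher. Only 4 were lower without *208-ΔA* female replicate 1 and 5 without *208-ΔA* male replicate 2. *DptB*, a diptericin of the Imd response, was at 41.9, 43.6, 4.22 and 5.74 CPM in *208-ΔA* and 15.7, 13.8, 1.35 and 2.03 in *208-ΔG*. Both *208-ΔG* libraries of each sex were lower, by -1.55 with the sexes averaged (SE 0.37, adjusted p = 0.0107), a call lost on library size alone. The cecropin genes *CecA1* and *CecA2* changed by -1.51 (SE 0.27) and -1.76 (SE 0.30), each with an adjusted p of 0.0100. Peptidoglycan recognition proteins, a family that includes receptors of this response, had 1 of 13 genes higher and 4 lower. Their median was -0.13, which became 0.60 on library size alone and -0.28 to -0.03 when single libraries were left out. *PGRP-SB2* was the higher one, by 2.48 (SE 0.64, adjusted p = 0.0115). *PGRP-LC*, the membrane receptor of the Imd pathway, changed by -0.50 (SE 0.15, adjusted p = 0.0181) and by 0.23, not called, on library size alone. Its adjusted p was 0.146 without *208-ΔA* female replicate 1, 0.0889 and 0.0803 without *208-ΔA* male replicates 1 and 2, and 0.0554 without *208-ΔF* male replicate 2.

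Turandot genes, secreted stress peptides of the fat body, had a median level of 117 RPKM. At 64 RPKM and over, 81.0% of all genes were lower. Turandot genes had 4 of 8 members lower (50.0%) and 1 higher. Their sum was 2739, 3712, 5501 and 7832 CPM in *208-ΔA*, 839.8, 1529, 1927 and 2112 in *208-ΔG*, and 317 to 590.4 in DGRP_208. Both deletion lines were above DGRP_208 in every library, and *208-ΔG* was below *208-ΔA* in each sex. *TotM* was lower by -1.89 (SE 0.34, adjusted p = 0.0100) and by -1.63 with the covariate (SE 0.53, unadjusted p = 0.0111). *TotA* was lower by -1.62 (SE 0.26, adjusted p = 0.0100) and *TotC* by -1.50 (SE 0.27, adjusted p = 0.0100).

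Heat shock genes were split, with 7 of 17 higher and 8 lower, or 8 and 5 on library size alone, and 3 to 7 higher when single libraries were left out. *Hsp83*, the Hsp90 chaperone, was at 1021 to 2281 CPM in *208-ΔA* and 320.3 to 1133 in *208-ΔG*, lower in each sex, with a change of -1.57 (SE 0.37, adjusted p = 0.0104). The endoplasmic reticulum protein disulfide isomerase *ERp60* changed by -1.88 (SE 0.32, adjusted p = 0.0100) and the lysosomal mannosidase *LManVI* by -1.80 (SE 0.34, adjusted p = 0.0100).

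Of the genes of detoxification, glutathione S-transferases had a median level of 12.2 RPKM, and 21.9% of all genes of 8 to 16 RPKM were lower. The transferases were lower in 20 of 35 cases (57.1%) and higher in 4, with a median of -0.59 that became 0.14 on library size alone. Only 11 were lower without *208-ΔA* female replicate 1, 13 without *208-ΔA* male replicate 1 and 12 without *208-ΔA* male replicate 2. *GstE1* was at 52.7 to 75.1 CPM in *208-ΔA* and 21.4 to 29.7 in *208-ΔG*, a change of -1.16 (SE 0.17, adjusted p = 0.0100). Cytochrome P450 genes were higher in 28 of 83 cases (33.7%) and lower in 29 (34.9%), not far from the 27.8% and 30.1% of all genes. Without TMM factors 48 were higher and 9 lower. The number higher was 14 to 16 without *208-ΔA* female replicate 1, *208-ΔA* male replicate 1 or *208-ΔG* female replicate 1. The abundant *Cyp6g1*, known for DDT resistance, was at 2329 to 3744 CPM in *208-ΔA* and 681 to 1210 in *208-ΔG*, lower by -1.50 (SE 0.27, adjusted p = 0.0100).

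Core clock genes were called in both directions. Of 9 genes 6 were lower and 1 higher, with a median of -0.67 that became 0.04 on library size alone. Their median level was 23.6 RPKM, and 40.9% of all genes of 16 to 32 RPKM were lower, against 66.7% here. *per* was at 23.2, 47.4, 29.2 and 32.9 CPM in *208-ΔA* and 178, 110.0, 126 and 134 in *208-ΔG*, higher by 2.05 (SE 0.45, adjusted p = 0.0102). Its partner *tim* was at 173 to 219 CPM and 113 to 119, lower by -0.77 (SE 0.12, adjusted p = 0.0100), a call lost on library size alone. *cwo*, a repressor of the same loop, was lower by -1.09 (SE 0.18, adjusted p = 0.0100). With the covariate, *per* was at 0.12 and *tim* at -0.50.

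Hemocyte markers, for the blood cells, had a median level of 9.67 RPKM. At 8 to 16 RPKM, 21.9% of all genes were lower and 36.8% higher. The markers were lower in 7 of 17 cases (41.2%) and higher in 4 (23.5%), with a median of -0.31 that became 0.42 on library size alone. The number lower was 4 without *208-ΔA* male replicate 2, and the number higher 2 to 5 when single libraries were left out. *Hml* (hemolectin), a secreted clotting protein and a standard marker of plasmatocytes, was at 356, 318, 311 and 324 CPM in *208-ΔA* and 146, 195, 130.4 and 133 in *208-ΔG*. All *208-ΔG* libraries were lower, by -1.13 (SE 0.15, adjusted p = 0.0100) and by -0.71 with the covariate (SE 0.15, unadjusted p = 0.000909). *Sr-CI*, a scavenger receptor of these cells, was lower by -0.61 (SE 0.13, adjusted p = 0.0102), and its change was 0.11 and not called on library size alone.

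Of 8 Malpighian tubule genes 2 were higher and 3 lower, with a median of -0.09 that became 0.63 on library size alone. *Uro*, urate oxidase of the tubule, was lower by -1.16 (SE 0.18, adjusted p = 0.0100), and *Lkr*, the leucokinin receptor, higher by 2.35 (SE 0.66, adjusted p = 0.0139). *Uro* was at 68.5 to 130.1 CPM in *208-ΔA* and 26.7 to 61.6 in *208-ΔG*, and its call was lost on library size alone. *Lkr* was at 3.59 to 11.7 CPM and 26.7 to 46.8, and with the covariate it was at -0.38.

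Values of yolk and vitelline membrane genes moved most with the *208-ΔA* male library described above. *Yp1*, *Yp2* and *Yp3* were lower by -2.65 (SE 0.89, adjusted p = 0.0258), -2.57 (SE 0.89, adjusted p = 0.0298) and -2.02 (SE 0.70, adjusted p = 0.0298) with all libraries. Without *208-ΔA* male replicate 2 the changes were -0.55, -0.34 and -0.35, and none of the 3 was called. None was called either without *208-ΔA* female replicate 2, *208-ΔG* female replicate 1 or *208-ΔG* male replicate 2, where their changes were -2.60 to -1.78, or on library size alone. Only *Yp1* was called without *208-ΔA* female replicate 1 and only *Yp3* without *208-ΔG* male replicate 1. The median of the 9 vitelline membrane genes tested went from -1.07, with 0 called by edgeR, to 1.06 with 1 higher when the *208-ΔA* male library was left out. Without the other *208-ΔA* male library 2 were lower. The yolk receptor gene *yl* went from -0.72 to 1.48 and the vitelline membrane gene *Vm26Ab* from -2.21 to 0.70, and neither was called in either fit. Among females, *Yp1* was at 488 and 871 CPM in *208-ΔA* and 78.4 and 235 in *208-ΔG*, and *yl* at 1434 and 1164 against 294 and 806. Both female *208-ΔG* libraries were thus the lower ones for these genes.

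Chorion genes, which build the outer eggshell at the end of oogenesis, were called higher in 2 of 9 cases, *Cp7Fa* by 2.24 (SE 0.49, adjusted p = 0.0102) and *Cp7Fb* by 2.23 (SE 0.61, adjusted p = 0.0128). The number higher was 7 without *208-ΔA* female replicate 2, 3 without either DGRP_208 male and 4 on library size alone. The median of the 9 was 1.84, 2.93 without *208-ΔA* female replicate 2 and 2.11 without *208-ΔA* male replicate 2. By sex, their median was 0.66 in females and 3.00 in males. The female sums, 319 and 936 CPM in *208-ΔG* and 279.9 and 930.4 in *208-ΔA*, overlapped. In males, which have no eggshell, the sum was 92.1 and 99.9 CPM in *208-ΔG* and 10.2 and 19.6 in *208-ΔA*. In DGRP_208 males it was 21.6 and 88.6, the second being the replicate with the higher chemoreceptor level.

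Germ line and maternal genes had a median level of 16.7 RPKM. At 16 to 32 RPKM, 40.9% of all genes were lower, with a median of -0.24. Of the 23 listed genes 9 were lower (39.1%), near that share, and 2 higher. Their median was -0.93, and it became 0.07 without *208-ΔA* male replicate 2. Without that library 4 were lower and 2 higher, and without *208-ΔA* female replicate 1 4 and 0. Without *208-ΔG* female replicate 1 or male replicate 1 the number higher was also 0, and it was 1 without *208-ΔG* male replicate 2 or *208-ΔA* male replicate 1. The balance turned on library size alone, with 5 higher and 2 lower. *tud*, a component of the polar granules, was at 572 to 843 CPM in *208-ΔA* and 247 to 445 in *208-ΔG*, a change of -1.18 (SE 0.27, adjusted p = 0.0103). *orb*, a regulator of translation in the oocyte, changed by -1.21 (SE 0.31, adjusted p = 0.0112). *narya*, a RING finger protein of meiotic recombination, was at 96.8, 143, 124 and 164 CPM in *208-ΔA* and 12.6, 31.2, 11.9 and 32.2 in *208-ΔG*. The change was -2.58 (SE 0.42, adjusted p = 0.0100), and -1.99 with the covariate (SE 0.61, unadjusted p = 0.00891). It was the largest fall among genes of at least 5 CPM under the naming rule, which took only genes without overlap within either sex.

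The medians of male reproductive genes had opposite signs in the sexes, a difference not tested over the lists. Testis genes were higher in 5 of 37 cases and lower in 3, or 12 and 0 on library size alone, with a median of 1.74 in females and -1.11 in males. In males, which have the organ, their sum was 3545 and 3775 CPM in *208-ΔG* and 9312 and 6670 in *208-ΔA*. In females it was 543 and 469 against 415 and 424. *topi*, a transcription factor of spermatocytes, was higher by 1.99 (SE 0.42, adjusted p = 0.0100) and *bol*, a translational regulator of meiotic entry, lower by -0.95 (SE 0.25, adjusted p = 0.0123), a call lost on library size alone. The number of testis genes higher ranged from 1 to 8 when single libraries were left out.

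Seminal fluid genes of the accessory gland and ejaculatory duct were lower in 4 of 29 cases and higher in 0 by edgeR, with a median of 0.67 in females and -1.29 in males and of 0.45 with the sexes averaged on library size alone. In males they summed to 4688 and 5907 CPM in *208-ΔG* and 14211 and 12960 in *208-ΔA*, and both *208-ΔG* males were below both *208-ΔA* males. Between 2 and 7 were lower when single libraries were left out. *Acp63F* was lower by -1.56 (SE 0.34, adjusted p = 0.0102). *EbpII*, of the ejaculatory bulb, was at 278 and 416 CPM in *208-ΔG* males and 1133 and 1033 in *208-ΔA* males, lower by -1.42 with the sexes averaged (SE 0.50, adjusted p = 0.0304). This call was lost on library size alone and without any 1 of the *208-ΔA* libraries, *208-ΔG* female replicate 1 or *208-ΔG* male replicate 1 (adjusted p 0.0508 to 0.0895). *Est-6*, an esterase of the ejaculatory duct that is also made elsewhere, was lower by -1.65 (SE 0.28, adjusted p = 0.0100).

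No gene was called for a difference of the line effect between the sexes by edgeR, whose lowest adjusted p was 0.303, while 1691 genes had p under 0.05 before adjustment. By DESeq2 the count was 509, by a fit on the 8 libraries alone 365 and by limma-voom 0. Several genes of smallest unadjusted p were male-biased, with levels above *208-ΔA* in *208-ΔG* females and below it in *208-ΔG* males. *CG17242* was at 0.408 and 0.540 CPM in *208-ΔA* females and 3.47 and 2.58 in *208-ΔG* females, and at 52.3 and 53.1 in *208-ΔA* males and 16.6 and 25.1 in *208-ΔG* males. Its effect was 2.62 in females and -1.34 in males, a difference of 3.96 (SE 0.68, unadjusted p = 0.000118). *CG4161* and *CG30350* had differences of 3.52 (SE 0.65) and 3.42 (SE 0.66). The chorion genes *Cp36* and *Cp38* had the mirror pattern, with -0.84 and -1.16 in females and 2.86 and 2.66 in males.

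Several genes were apart between the lines within each sex and kept much or all of their change with the covariate. Genes were named partly for a small p in that fit, so a large value there follows from the choice. Others of the same choice, such as *CG13607* and *CG13946*, were not called without the covariate. *Srg3* was at 6.21, 9.21, 9.32 and 11.2 CPM in *208-ΔA* and 37.1, 43.2, 26.1 and 35.6 in *208-ΔG*. The levels of *208-ΔF* (30.9 to 52.4) and DGRP_208 (16.3 to 40.8) were also above those of *208-ΔA*. The change was 1.98 (SE 0.21, adjusted p = 0.0100), and 1.72 with the covariate (SE 0.31, unadjusted p = 0.000214). *lncRNA:CR32368* was at 1.55 to 2.61 CPM in *208-ΔA* and 7.52 to 19.0 in *208-ΔG*, a change of 2.30 (SE 0.42, adjusted p = 0.0100) and of 3.47 with the covariate (SE 0.50, unadjusted p = 3.66e-05). It too was higher in every library of *208-ΔF* and DGRP_208 than in *208-ΔA*.

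*Drip*, an aquaporin of the Malpighian tubule, was at 21.5 to 27.4 CPM in *208-ΔA* and 34.1 to 40.5 in *208-ΔG*, and at 40.9 to 70.9 in DGRP_208. Its change was 0.59 (SE 0.18, adjusted p = 0.0181), and 1.22 with the covariate (SE 0.17), where its unadjusted p of 2.32e-05 was the smallest of the genes given here. The call without the covariate was lost when *208-ΔG* female replicate 2 (adjusted p = 0.0765), male replicate 1 (0.0637) or male replicate 2 (0.0668) was left out. *lncRNA:CR45349* was higher by 2.01 (SE 0.32, adjusted p = 0.0100) and by 2.04 with the covariate. In the other direction, *CG15096* was at 225 to 264 CPM in *208-ΔA* and 65.7 to 118 in *208-ΔG*, lower by -1.53 (SE 0.17, adjusted p = 0.0100) and by -1.01 with the covariate (SE 0.18, unadjusted p = 0.000213). *CG15233* was lower by -1.73 (SE 0.25, adjusted p = 0.0100) and by -1.22 with the covariate, and *DptB* by -2.52. None of these passed the adjusted threshold with the covariate.

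The largest falls among genes of at least 5 CPM, taken only from genes without overlap within either sex, were spread over several functions. *Trs20*, a subunit of the TRAPP vesicle tethering complex, was lower by -2.52 (SE 0.42, adjusted p = 0.0100), *CG15142* by -2.43 (SE 0.37, adjusted p = 0.0100) and *CG10910* by -2.30 (SE 0.31, adjusted p = 0.0100). *Kr-h1*, a transcription factor of the juvenile hormone response, was at 96.4, 61.1, 70.4 and 68.1 CPM in *208-ΔA* and 12.6, 32.5, 13.3 and 16.1 in *208-ΔG*. The change was -2.02 (SE 0.32, adjusted p = 0.0100) and -0.91 with the covariate. *MtnD*, a metallothionein that binds heavy metals, was lower by -1.98 (SE 0.39, adjusted p = 0.0100).

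**Figure D4:**
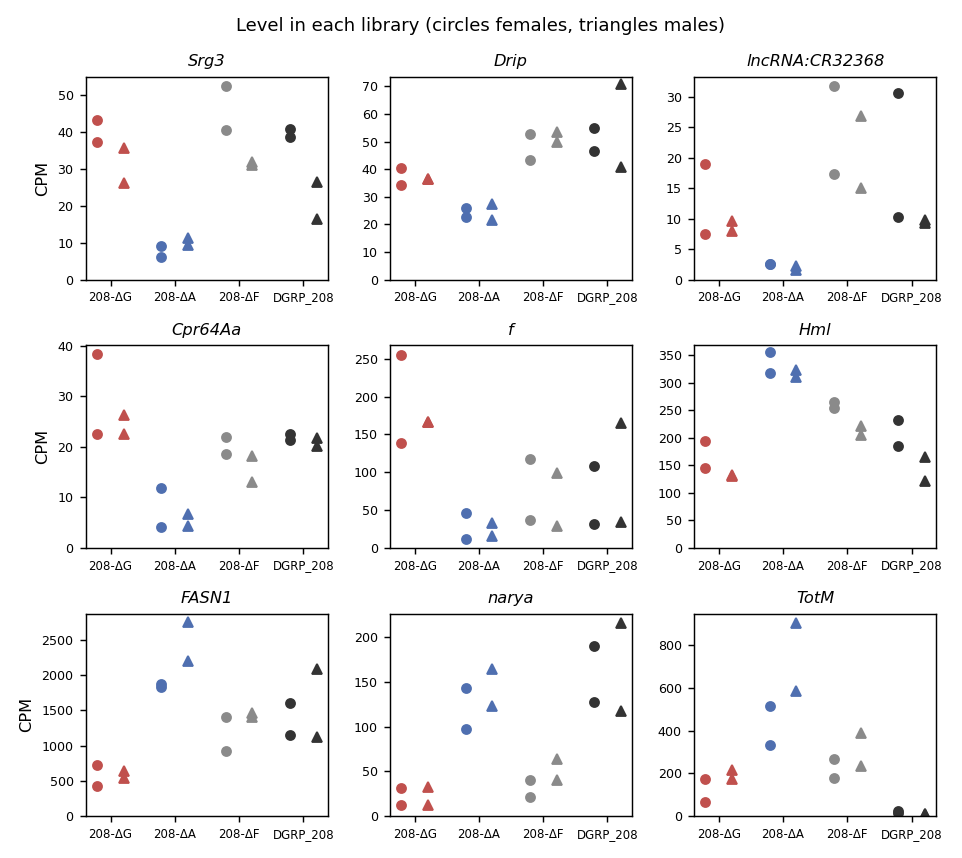
Level of 9 genes (CPM, vertical axis, from 0) in each library of the 4 lines (horizontal axis), with circles for females and triangles for males. For every gene the *208-ΔG* and *208-ΔA* libraries do not overlap, and for *Srg3*, *Drip*, *lncRNA:CR32368* and *Cpr64Aa* the *208-ΔA* libraries are the lowest of the 4 lines.

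Small nucleolar RNAs were called mostly in the lower direction. Their median level was 8.73 RPKM, and 21.9% of all genes of 8 to 16 RPKM were lower. Of 185 snoRNA genes, *snoRNA:Or-aca5* and *snoRNA:Psi28S-2949* of *Uhg4* included, 89 were lower (48.1%), 4 higher and 92 not called, with a median of -1.13 and of -0.36 with the covariate. Scaled to library size alone, 17 were lower and 9 higher, with a median of -0.43. The number lower was 27 without *208-ΔA* female replicate 1, 37 without *208-ΔA* male replicate 2, 41 without *208-ΔG* female replicate 1 and 52 without *208-ΔG* male replicate 2. *snoRNA:Psi28S-291* was at 285, 207, 131 and 208 CPM in *208-ΔA* and 89, 141, 64.7 and 48.7 in *208-ΔG*, lower by -1.34 (SE 0.27, adjusted p = 0.0100). The Uhg host genes, *Uhg4* included, were lower in 5 of 7 cases, and in 2 without *208-ΔA* male replicate 2 or on library size alone. *Uhg1* changed by -1.56 (SE 0.38, adjusted p = 0.0109) and *Uhg3* by -1.63 (SE 0.46, adjusted p = 0.0144). Of 28 small nuclear RNA genes 8 were lower and 0 higher by edgeR, or 3 and 6 on library size alone. Histone genes of the replication cluster were mostly not called, with 2 of 22 higher and 3 lower, or 2 and 0 on library size alone.

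Calls also differed by chromosome, and genes of the fourth chromosome were mostly lower. Of 105 genes on chromosome 4, 76 (72.4%) were lower and 3 higher, with a median of -1.13 and of -0.11 with the covariate. In genes of at least 16 RPKM, 44 of 45 were lower (97.8%), against 55.7% of genes on the arms of chromosomes 2 and 3. Between 4 and 16 RPKM, 24 of 35 were lower (68.6%), against 19.5%. The shares thus differed at like levels, and no test was made of them. On library size alone 43 of the 105 were lower and 13 higher.

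On the X chromosome 810 of 2451 genes (33.0%) were higher and 666 (27.2%) lower, against 27.8% and 30.1% of all genes. Without TMM factors 1425 were higher and 166 lower. Between 4 and 16 RPKM 519 of 1013 were higher (51.2%), against 39.7% on the arms of chromosomes 2 and 3. Of 79 Y-linked genes 26 were higher and 6 lower. *WDY*, a Y-linked male fertility gene, was higher by 2.24 (SE 0.61, adjusted p = 0.0127), and its female libraries, whose flies carry no Y chromosome, were at 0.408 and 1.90 CPM in *208-ΔA* and 10.8 and 6.33 in *208-ΔG*. *ORY* was higher by 1.77 (SE 0.58, adjusted p = 0.0244), a call lost without *208-ΔA* female replicate 1 (adjusted p = 0.0629) or male replicate 2 (0.0600) and without *208-ΔG* female replicate 1 (0.0860) or male replicate 2 (0.0568). With the covariate, *WDY* was at 0.07 and *ORY* at -0.11.

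**Figure D5:**
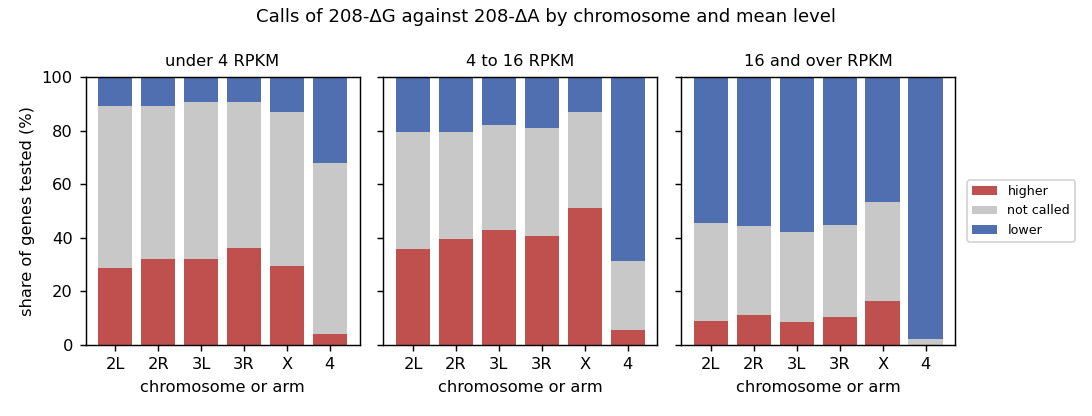
Share of genes (%, vertical axis) higher in *208-ΔG*, lower in it or not called on the X, chromosome 4 and the arms of chromosomes 2 and 3 (horizontal axis, Y not drawn), in 3 ranges of mean level. Of these, chromosome 4 has the highest lower share in each range, reaching 97.8% at 16 RPKM and over, and between 4 and 16 RPKM the higher share of the X is 51.2%, against 39.7% on the arms of chromosomes 2 and 3.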

How the data were processed

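Raw counts per gene were deposited as 1 table of 17490 genes and 16 libraries. According to the study's methods and the submitters' processing notes, the authors depleted ribosomal RNA, aligned the reads to dm6 using GSNAP, and counted those with a unique alignment in featureCounts (Subread), in versions not given in the sources used here. The strand setting is not stated, so overlapping and antisense genes cannot be separated, and near-identical genes are uncertain because only unique alignments were counted. Columns were matched to samples by title. Symbols and coordinates came from a BDGP6 annotation for 17288 genes. Of the 17490 genes 663 had no count and 1278 a median count under 2.

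Counts of 16212 genes were fitted with edgeR 4.0.16 in R 4.3.3 (TMM, quasi-likelihood, 1 mean per group of line and sex, 8 residual degrees of freedom). The line effect was tested with the sexes averaged, in each sex, and as a difference between the sexes (females minus males), at a Benjamini-Hochberg adjusted p under 0.05. Fold changes are log2 of *208-ΔG* over *208-ΔA*, and SE is derived from the fold change and its F statistic. Where 4 values are given for a line, the order is female replicates 1 and 2, then male replicates 1 and 2. RPKM used the gene lengths of the deposited table and total counts. The scripts were tested on simulated data.

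The gene lists and members were chosen with earlier results of these data known. Genes named were *Uhg4*, its snoRNAs and neighbours and *Ilp6*, and, taken from larger sets, those of largest change with at least 5 or 100 CPM and no overlap within either sex, those of smallest p with the covariate or between the sexes at 1 CPM or more, and list members of smallest p. Alternatives were an adjusted p under 0.1, 3 other scalings, 2 other filters, DESeq2 1.42.0, limma-voom (limma 3.58.1), a linear model on GeTMM values (log2, pseudocount 1), the 8 libraries alone, the replicate number as a block, the chemoreceptor covariate and leaving out each library. The study also used GeTMM values, but it tested Line and Line by Sex terms over all lines. It set its own cutoff on the raw p and reported far fewer genes. Its gene counts and those given here therefore answer different questions.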

Additional observations from a re-analysis of the deposited data

How the results depend on the processing

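With the sexes averaged, the number of genes called was 9264 to 10867 under the other threshold, scalings, filters, tools and samples tried and 8903 with the replicate number as a block, 0 with the chemoreceptor covariate, and 5690 to 9985 without single libraries. The correlation of same-numbered deviations between groups was -0.87 to 0.74. These values cannot tell whether same-numbered libraries were prepared together, since replicate differences also followed the chemoreceptor level. In females the count went from 0 to 8690 at an adjusted p under 0.1, 8097 with DESeq2, 1 with the linear model on GeTMM values and 7899 with the 8 libraries alone. In males it went to 7581, 6707, 2 and 7483 in the same order and to 6452 with limma-voom. Without single libraries the range was 0 to 7239 in females, with calls where *208-ΔF* female replicates 1 and 2, *208-ΔG* female replicate 2, DGRP_208 female replicate 2 or either DGRP_208 male was left out. In males it was 0 to 6502, with calls without either DGRP_208 male. The difference between the sexes went from 0 to 509 with DESeq2 and 365 with the 8 libraries alone, and stayed at 0 without single libraries. The chemoreceptor difference was 2.47 to 3.18 on the log2 scale without single libraries. The cause of these differences was not tested.

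Of 100 genes given with a test, 92 were called. With the covariate none was called by edgeR, 87 calls being lost with the sign kept, and 6 genes changed sign, *f* to -0.10, *CG3339* to -0.25, *Cp38* to -0.062, *Ctu1* to -0.061, *Lkr* to -0.38 and *ORY* to -0.11. On library size alone 13 calls were lost with the sign kept, and those of *PGRP-LC* (0.23) and *Sr-CI* (0.11) were lost with a change of sign. The block ended 1 call, that of *Uhg4*. Leaving out single libraries ended calls of 11 genes in at least 1 fit, and without *208-ΔA* male replicate 2 *yl* was at 1.48 and *Vm26Ab* at 0.70, their range over such fits being -1.22 to 1.48 and -2.95 to 0.70. Fits without 1 library assume that the lone replicate varies like the other groups.

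With 2 libraries per group, a single library sets a mean by itself, and the lines differ in TMM factor, in the share of counts in abundant genes and in chemoreceptor level at once, so these cannot be told apart as the basis of a gene's change.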

Other observations

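Genes on the proximal part of chromosome arm 2R differed from the rest of the arm in their calls. Below 16 RPKM, 32 of 72 genes in the first 6 Mb of the annotated arm were lower in *208-ΔG* (44.4%) and 14 higher, with a median of -0.58. On the rest of the arm 305 of 1898 were lower (16.1%) and 712 higher, with a median of 0.45. With the covariate the medians were -0.22 and -0.06. No test was made of these shares.

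With the sexes averaged, coding genes with a single exon were called lower less often than those with more exons at high levels. At 16 RPKM and over, 31.4% of 724 genes with 1 exon and 58.4% of 4957 genes with at least 2 exons were lower, shares that were not tested against each other. The medians of these 2 classes were 0.29 and -0.56 in females but -0.83 and -0.77 in males. On library size alone 90 of the 724 were lower and 305 higher, and 1055 of the 4957 lower and 1676 higher. Between 4 and 16 RPKM the shares of higher genes were 40.2% and 39.0%, and below 4 RPKM 36.3% and 38.3%.

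Reads assigned to Y-linked genes were found in female libraries of both lines. *ORY* was at 8.62 and 3.43 RPKM in *208-ΔG* females and 0.264 and 1.05 in *208-ΔA* females. *kl-5*, an axonemal dynein heavy chain gene needed for sperm, was at 35.3 and 23.5 CPM in *208-ΔG* females, 2.78 and 7.46 in *208-ΔA* females, 43.8 and 45.8 in *208-ΔG* males and 65.0 and 44.5 in *208-ΔA* males. The ratio of the median level of 25 X-linked to that of 161 autosomal chemoreceptor genes was 1.62 to 1.89 in *208-ΔG*, females and males together, and 1.07 to 1.97 in *208-ΔA*.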
